A study of Mus musculus with 2 samples.

Results

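*Igfbp2* and 7 further genes of insulin-like growth factor (IGF) signalling were followed in single neural stem/progenitor cells (NSPCs). The 8 genes are the binding proteins *Igfbp2*, *Igfbp3*, *Igfbp4* and *Igfbp5*, the receptors *Igf1r*, *Igf2r* and *Insr*, and the receptor substrate *Irs2*, out of 15046 genes in the count table. They were selected on measured values of these same cells. These were the presence of counts and an *Igfbp2* difference, known when the genes were listed, between cells sorted by a fluorescent lipid droplet protein. That difference is therefore given as a description with no p-value. Cell cycle phases were compared with a test, since no value by phase is part of the rule that lists the genes.

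The cells are adult NSPCs of the subventricular zone of male C57/Bl6 mice of 6 to 8 weeks, cultured in medium with EGF, FGF-2 and the N2 supplement, and they were in the proliferating state and received no treatment. All cells belong to 1 stable line that carries a retroviral PLIN2-GFP, in which perilipin 2, a coat protein of lipid droplets (LDs), is fused to green fluorescent protein, under the broadly active CAG promoter. By GFP signal, the dimmest 25% of cells were taken as the low and the brightest 25% as the high PLIN2-GFP category, here low cells and high cells, and single cells of both went onto each of 2 plates. They were sequenced by SORT-seq, which counts unique molecular identifiers (UMIs) near the 3′ end of polyadenylated RNA. Plate 1 held 95 low and 84 high cells and plate 2 held 72 low and 53 high cells, and a source is the cells of 1 plate and category, which makes 4 sources of 304 cells in all.

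The sums over the cells of a source held between 778022 and 1029023 UMIs, and the median cell of a source had between 7856 and 14729 UMIs. Low cells came from 8 rows of wells and high cells from 8 others, with 0 rows shared, so that the row of wells and the category cannot be told apart. Both plates hold the same line, and p-values measure only the spread between these sums. The label was checked on markers: all 6 NSPC markers looked for (*Sox2*, *Nes*, *Fabp7*, *Vim*, *Hes1* and *Slc1a3*) were found in over 10% of cells, and their summed level lay between 7486 and 7900 CPM (UMIs of a gene per 1000000 UMIs of the sum) in the 4 sources. Among these, *Fabp7* and *Vim* had the most UMIs and were found in 99.3% and 100% of cells. *Sox2* was found in 16.1% and *Hes1* in 54.3% of cells. Of the 7 markers of the oligodendrocyte lineage, 4 were found in over 10% of cells, led by *Olig1* in 100% and *Olig2* in 98.7%. Of 6 astrocyte markers, 2 were, *Aldh1l1* and *Slc1a2*, both in 42.1% of cells, whereas *Gfap* had 1.5 UMIs in all cells together. Of 4 endothelial markers 2 had a row in the table analysed here, and of 6 markers of mural cells or fibroblasts 3 had one. None of these 5 was found in over 10% of cells, with summed levels of 2.92 to 13.1 CPM and 4.86 to 16.7 CPM over the sources. Of 6 neuronal markers 1 was found in over 10% of cells, *Map2* in 91.4%, 3 had no row in the tables, and their summed level was 383 to 521 CPM. Of 3 ependymal markers 1 was, *Foxj1* in 13.5% of cells, at a summed level of up to 20.4 CPM. The 6 microglial markers had no row in the table analysed here.

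IGFs are secreted hormones that promote growth, survival and proliferation through the receptor tyrosine kinase IGF1R and, with insulin, through the insulin receptor INSR. Most IGF outside cells is held by IGF binding proteins, which can keep it from the receptors or carry it to them, and some of which also act on cells without IGF. IGF2R carries IGF2 to lysosomes for degradation and has no tyrosine kinase, and IRS2 is an adaptor that links the activated receptors to phosphoinositide 3-kinase. The N2 supplement of the culture medium contains insulin, so insulin was offered to all cells.

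The binding proteins were the abundant members, and *Igfbp2* stood out among them. *Igfbp2* had 4349 UMIs in all cells together, which is 1255 CPM, and at least 1 UMI of it was found in 290 of 304 cells (95.4%, 95% exact binomial interval 92.4% to 97.5%; such intervals cover counting error only). *Igfbp3* followed with 1084 UMIs and was found in 79.6% of cells (74.6% to 84.0%), *Igfbp4* with 1027 UMIs in 76.3% (71.1% to 81.0%), and *Igfbp5* with 369 UMIs in 49.7% (43.9% to 55.4%). No cell type known to lack these genes was identified here that could give a background share. Each molecule is counted once at its 3′ end, so these counts need no division by gene length, although the efficiency of capture can differ between genes. The receptors were sparse, with 174 UMIs of *Igf1r* in 36.5% of cells (31.1% to 42.2%), 85 UMIs of *Igf2r* in 19.7% (15.4% to 24.7%) and 37 UMIs of *Insr* in 6.91% (4.33% to 10.4%). *Irs2* had 54 UMIs in 14.5% of cells (10.7% to 18.9%). *Igfbp3* and *Igfbp4* are neighbours in this order whose intervals overlap. Both shares come from the same cells, and the difference between them was not tested. Thinning to 5000 UMIs per cell dropped 45 shallower cells. In the thinned data *Igfbp2* was found in 96.1% of the 259 cells, *Igfbp3* in 71.0%, *Igfbp4* in 62.2% and *Igfbp5* in 32.8%, and each of the other 4 members in 25.9% or less.

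Within single cells, the level of *Igfbp2* ranged widely. The lowest 10% of cells had up to 255 CPM, the median cell had 1147 CPM, the highest 10% had 2201 CPM or more, and the highest cell had 4249 CPM, or 64 UMIs in the richest cell by count. No UMI of *Igfbp2* was seen in 4.61% of cells, where counting error at one common level would leave 0.797%. The spread beyond counting was measured as the squared coefficient of variation after the counting part was taken off: it was 0.352 for *Igfbp2*, 0.428 for *Igfbp3* and 0.786 for *Igfbp4*, against a median of 0.123 over the 930 genes with a mean of at least 2 UMIs per cell. *Igfbp4* thus ranked 25th of 930 genes in this spread, *Igfbp3* 91st and *Igfbp2* 128th, and the value includes the differences between plates, categories and phases.

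In low cells, the level of *Igfbp2* was 1155 CPM on plate 1 and 864 CPM on plate 2, and in high cells it was 1546 and 1402 CPM. Both high sums lay above both low sums, with means of 1010 ± 205 CPM in low and 1474 ± 102 CPM in high (SD, n = 2 plates). The log2 fold change of high over low in the edgeR fit with the plate as a block was 0.49 (SE 0.078), a 1.40-fold higher level. Per plate it was 0.35 on plate 1 and 0.64 on plate 2 (SD 0.21, n = 2 plates). The SE borrows its spread from all genes and is not the spread between the plates. For the members it describes the fit and is not used as a test. Low and high cells overlapped in *Igfbp2*. On plate 1 the upper quartile was close in the 2 categories, at 1795 CPM in low and 1864 CPM in high cells. On plate 2 it was 1210 CPM in low cells, below the median of 1324 CPM in high cells, and 1783 CPM in high cells. The lower quartiles were apart on both plates, at 492 and 356 CPM in low but 1091 and 1078 CPM in high cells. Cells above 2000 CPM were 18.9% of the low cells and 20.2% of the high cells of plate 1, and 4.17% and 16.98% of those of plate 2.

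*Igfbp4*, whose product mostly restrains IGF action, was at 259 and 222 CPM in low and at 329 and 373 CPM in high cells of plates 1 and 2, again with both high sums above both low sums (log2 fold change 0.48, SE 0.12). Its log2 fold change was 0.79 in thinned cells, 0.19 among S cells and 0.82 among G2/M cells, and it was 0.16 in cluster 0 and -0.07 in cluster 1. *Igfbp3*, which codes for the main carrier of IGF in blood, was at 304 and 264 CPM in low and at 380 and 287 CPM in high, so the groups overlapped (0.16, SE 0.12). *Igfbp5*, a binding protein that attaches to extracellular matrix, was at 137 and 97.4 CPM in low and at 103 and 89.97 CPM in high, and the groups overlapped as well (-0.35, SE 0.17). The sign of *Igfbp5* turned among S cells (0.09) and in cluster 0 (0.06). *Igf1r* stood at 50.6 and 58.5 CPM in low and at 48.6 and 43.1 CPM in high (-0.30, SE 0.25). That sign turned in thinned cells (0.14) and among G1 cells (0.05). *Igf2r* stood at 22.4 and 16.3 CPM in low and at 28.2 and 30.8 CPM in high (0.53, SE 0.34). *Irs2* was at 15.0 and 12.8 CPM in low and at 21.4 and 11.6 CPM in high (0.18, SE 0.42), and *Insr*, at 9.98 and 10.5 CPM in low and 8.75 and 14.1 CPM in high, had too few counts for edgeR's filter. Only *Igfbp2*, *Igfbp4* and *Igf2r* of the 8 members had both high sums above both low sums, where 20.5% of the 8372 genes tested did so. *Igf1r* had both high sums below both low sums, as did 11.6% of the genes tested. This is the comparison the members were chosen in, so nothing is read from these counts. Depth moved with these values and its part was not tested beyond thinning: the median high cell had 11709 and 14729 UMIs on plates 1 and 2, and the median low cell 7856 and 11955 UMIs. In cells thinned to 5000 UMIs, the mean count of *Igfbp2* was 5.82 and 4.69 UMIs in low and 8.33 and 7.04 UMIs in high cells.

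**Figure D1:**
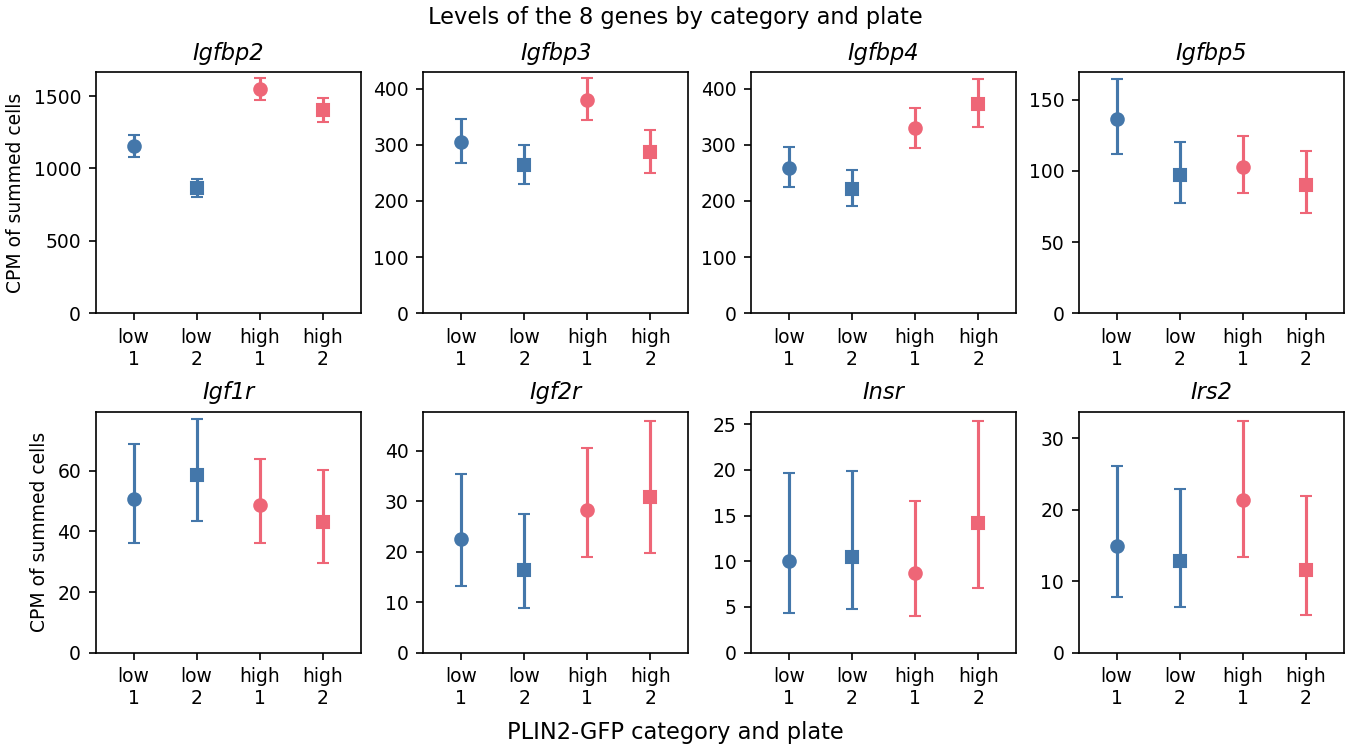
Level of each of the 8 genes (CPM of the summed cells, linear axis from 0) in low and high cells of plates 1 and 2; circles are plate 1, squares plate 2, and bars are 95% Poisson intervals of the sums, which cover counting error only. *Igfbp2* lies at 864 and 1155 CPM in low and at 1402 and 1546 CPM in high, while *Igfbp3* and *Igfbp5* overlap between the categories.

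The cell cycle phase of each cell was taken from the authors' per-cell table, in which it comes from scores over cell cycle genes, and 0 of the 8 members are among the 97 genes of the lists that come with the Seurat package. Summing by plate, category and phase gave 12 sums from the 4 sources. Phases were compared within sources by edgeR's quasi-likelihood test, and p-values were adjusted by the Benjamini-Hochberg method across the 5399 genes with enough counts for edgeR. An adjusted p under 0.1 makes a call. *Igfbp2*, *Igfbp3*, *Igfbp4*, *Igfbp5* and *Igf1r* passed the filter, and *Igf2r*, *Insr* and *Irs2* did not.

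The transcripts of the binding proteins fell from G1 phase to G2/M phase, *Igfbp5* most steeply. *Igfbp2* in G1 phase was at 1461 and 1221 CPM in low and at 1935 and 1639 CPM in high cells of plates 1 and 2. In S phase it was at 832 and 779 CPM in low and at 1463 and 1454 CPM in high. In G2/M phase it was at 826 and 591 CPM in low and at 1260 and 1102 CPM in high. G1 was the highest and G2/M the lowest phase in each of the 4 sources, although the ranges of the phases over all sources overlapped, as 1 of the 2 high sums in G2/M phase lay above the lower of the 2 low sums in G1 phase. Of the genes tested, 11.9% had G1 above S phase and 15.2% had G1 above G2/M phase in each of the 4 sources. The means of *Igfbp2* were 1564 ± 301 CPM in G1, 1132 ± 378 CPM in S and 944 ± 296 CPM in G2/M (SD, n = 4 sources). Within sources, *Igfbp2* was lower in S than in G1 phase by a log2 fold change of -0.55 (SE 0.088, edgeR adjusted p = 1.49e-05) and lower in G2/M than in G1 phase by -0.81 (SE 0.089, edgeR adjusted p = 3.33e-09).

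*Igfbp5* in G1 phase was at 206 and 188 CPM in low and at 195 and 158 CPM in high cells. It was at 72.5 and 65.2 CPM in low and at 83.9 and 71.7 CPM in high in S phase, and at 54.4 and 37.8 CPM in low and 34.9 and 46.4 CPM in high in G2/M phase. All 4 sums in G1 phase lay above all 4 in S phase, as for 3.57% of the genes tested, and above all 4 in G2/M phase, as for 5.35%. Within G1 phase, the high cells of each plate lay below the low cells of that plate. The log2 fold change was -1.39 from G1 to S phase (SE 0.19, edgeR adjusted p = 1.15e-06) and -2.20 from G1 to G2/M phase (SE 0.21, edgeR adjusted p = 1.18e-10), a 4.60-fold lower level. At least 1 UMI of *Igfbp5* was found in 60.6% of the 132 cells in G1 phase (51.7% to 69.0%), in 45.5% of the 77 cells in S phase (34.1% to 57.2%) and in 37.9% of the 95 cells in G2/M phase (28.1% to 48.4%), although cells in G1 phase had the fewest UMIs.

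*Igfbp4* was at 346 ± 118 CPM in G1, 303 ± 46.4 CPM in S and 242 ± 90.6 CPM in G2/M phase (SD, n = 4 sources), and *Igfbp3* at 334 ± 42.1, 339 ± 73.3 and 255 ± 49.997 CPM. Both were lower in G2/M than in G1 phase in 4 of 4 sources, by -0.55 for *Igfbp4* (SE 0.15, edgeR adjusted p = 0.00910) and -0.44 for *Igfbp3* (SE 0.13, edgeR adjusted p = 0.0135). Between S and G1 phase, the log2 fold change was -0.22 for *Igfbp4* (SE 0.15, edgeR adjusted p = 0.395) and -0.04 for *Igfbp3* (SE 0.12, edgeR adjusted p = 0.883), and neither was called. Without plate 2, *Igfbp4* and *Igfbp3* were not called in G2/M phase (edgeR adjusted p = 0.280 and 0.242). *Igfbp3* was not called without plate 1 either (edgeR adjusted p = 0.134) or with DESeq2 (adjusted p = 0.108).

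The receptor gene *Igf1r* was at 48.9 ± 2.93 CPM in G1, 63.8 ± 16.5 CPM in S and 39.0 ± 16.04 CPM in G2/M phase (SD, n = 4 sources), and neither difference from G1 was called (0.28, SE 0.28, in S and -0.29, SE 0.30, in G2/M phase; edgeR adjusted p = 0.586 and 0.566). Of the 3 members below the filter, *Igf2r* ranged from 10.3 to 46.9 CPM, *Insr* from 1.72 to 25.9 CPM and *Irs2* from 4.27 to 40.1 CPM over the 12 sums, with no phase highest in all sources. In all, 2 of the 5 members tested were called lower in S phase, where 17.1% of the genes tested were called and 7.39% were called lower, and 4 of 5 were called lower in G2/M phase, where 22.1% were called and 11.0% were called lower. None of the 5 was called higher in either phase, whereas 9.74% and 11.1% of the genes tested were. The median log2 fold change of the 5 in G2/M phase was -0.55, and that of all genes tested was -0.01. The direction in G2/M phase was the same for all 4 called members with DESeq2's size factors and with library size alone in place of TMM factors.

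Depth and mitochondrial share moved with the phase: the median cell in G1 phase had 9049 UMIs, in S phase 13560 and in G2/M phase 11333, and 14.01%, 11.6% and 11.9% of its UMIs were mitochondrial. Their part in the phase differences was not tested beyond the following values. Counted per cell and without division by depth, *Igfbp2* had 16.1 ± 4.96 UMIs in G1 phase, 16.04 ± 7.84 UMIs in S phase and 11.8 ± 5.54 UMIs in G2/M phase (SD, n = 4 sources), which is below G1 in 2 of 4 sources for S and in 4 of 4 for G2/M phase. *Igfbp5* had 1.87 ± 0.194, 1.00 ± 0.258 and 0.522 ± 0.142 UMIs per cell in G1, S and G2/M phase, below G1 in 4 of 4 sources for both. *Igfbp3* had 3.42 ± 0.838 UMIs per cell in G1 and 3.11 ± 0.945 in G2/M phase, and *Igfbp4* had 3.62 ± 1.73 and 3.07 ± 1.73, again below G1 in 4 of 4 sources each. After thinning to 5000 UMIs per cell, *Igf1r* no longer passed the filter. Of the 4 members left, 2 were called in S and 4 in G2/M phase, where 248 and 419 of the 2011 genes tested were called.

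Whether the phase differences themselves differed between low and high cells was asked with an interaction term. None of the 5 members was called by edgeR's quasi-likelihood test, where 0.0185% of the genes tested were. At an unadjusted p under 0.05, 1 of the 5 members passed with edgeR, where 5.22% of the genes tested did, 0 passed with DESeq2 and 2 with limma voom. The member that passed with edgeR was *Igfbp2* (edgeR adjusted p = 0.904). Its log2 fall from G1 was smaller in high cells by 0.43 in S and by 0.35 in G2/M phase. The interaction term compares low and high cells. *Igfbp2* was chosen with a difference between them known, so nothing is read from these counts.

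**Figure D2:**
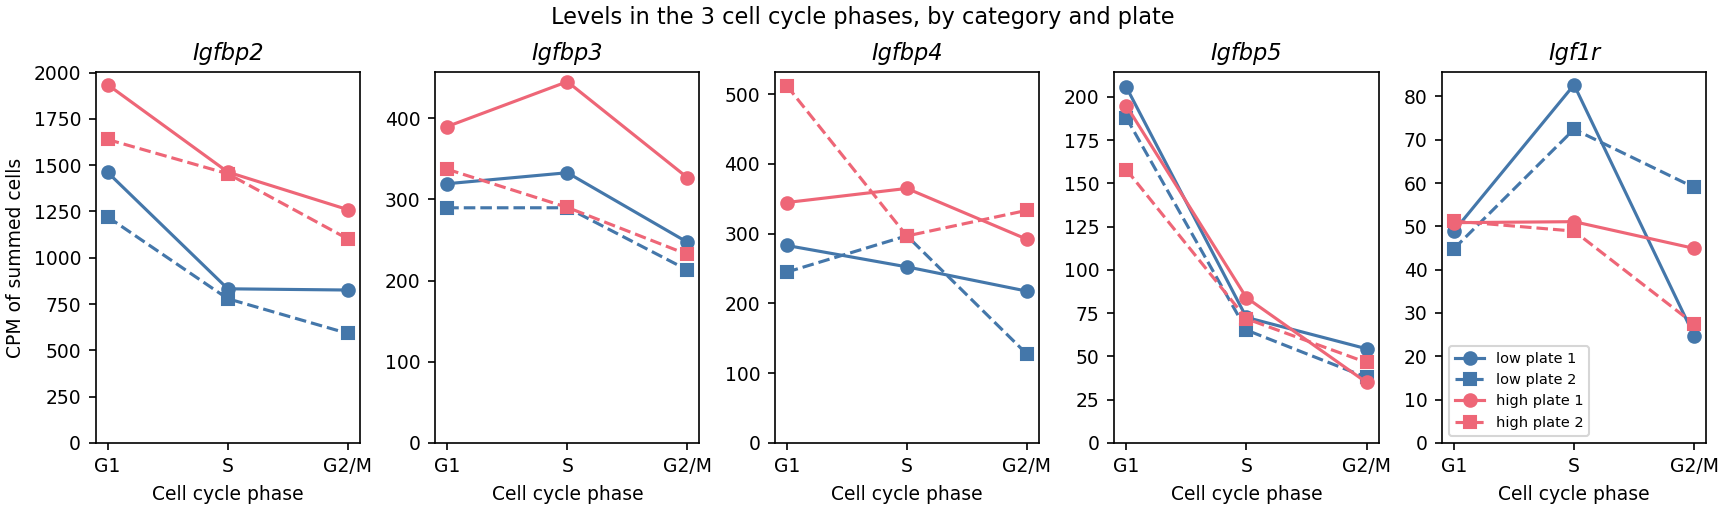
Level (CPM of the summed cells, linear axes from 0) of the 5 members that passed the filter in G1, S and G2/M phase; each line is 1 of the 4 sources, blue for low and red for high cells, solid with circles for plate 1 and dashed with squares for plate 2. *Igfbp2* and *Igfbp5* fall from G1 to G2/M phase in every source, *Igfbp5* from 158 to 206 CPM down to 34.9 to 54.4 CPM.

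*Igfbp2* and *Igfbp5* lie next to each other in the genome. In GRCm38 with the GENCODE M21 annotation, *Igfbp2* spans chr1:72824503-72852474 on the plus strand and *Igfbp5* spans chr1:72857932-72874884 on the minus strand, so that their 3′ ends face each other with 5457 bases and 0 annotated genes between them. *Igfbp4* lies at chr11:99041244-99054392 on the plus strand and *Igfbp3* at chr11:7206086-7213923 on the minus strand. The receptors and the adaptor lie elsewhere, *Igf1r* at chr7:67952827-68233668 on the plus strand, *Igf2r* at chr17:12682406-12769664 on the minus strand, *Insr* at chr8:3122061-3279617 on the minus strand and *Irs2* at chr8:10984681-11008458 on the minus strand.

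Since several binding protein genes fell together from G1 to G2/M phase, the 250 bases before their RefSeq start sites (GRCm38.p6) were searched on both strands for letters of textbook promoter motifs: GGGCGG, the GC box; CACGTG, an E-box; TATAAA, the TATA box; and TTTGAA, the core of the cell cycle homology region found at genes that peak in G2/M phase. The 3 promoters below differ in matches to these exact letters. They are chr1:72824230-72824479 on the plus strand for *Igfbp2*, chr11:99040994-99041243 on the plus strand for *Igfbp4* and chr1:72874866-72875115 on the minus strand for *Igfbp5*, each printed 5′ to 3′ on the gene's strand with matches to the 4 motifs in capitals.
Igfbp2: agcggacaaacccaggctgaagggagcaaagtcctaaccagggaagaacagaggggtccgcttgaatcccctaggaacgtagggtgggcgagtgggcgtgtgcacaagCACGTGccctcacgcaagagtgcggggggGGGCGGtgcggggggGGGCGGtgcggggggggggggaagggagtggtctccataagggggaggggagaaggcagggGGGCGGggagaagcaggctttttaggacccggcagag
Igfbp4: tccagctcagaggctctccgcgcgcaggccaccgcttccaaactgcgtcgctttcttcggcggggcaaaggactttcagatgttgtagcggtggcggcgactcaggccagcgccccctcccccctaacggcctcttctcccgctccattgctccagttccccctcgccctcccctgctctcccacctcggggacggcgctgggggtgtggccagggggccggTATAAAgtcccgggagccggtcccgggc
Igfbp5: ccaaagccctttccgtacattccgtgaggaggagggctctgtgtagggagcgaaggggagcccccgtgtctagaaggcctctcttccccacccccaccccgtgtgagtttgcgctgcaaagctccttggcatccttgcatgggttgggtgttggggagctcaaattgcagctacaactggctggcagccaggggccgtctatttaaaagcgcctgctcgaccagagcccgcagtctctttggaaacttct

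The *Igfbp2* promoter held 3 matches to the GC box and 1 to the E-box, the *Igfbp4* promoter 1 match to the TATA box, ending close to the start site, and the *Igfbp5* promoter 0 matches to any of the 4. The *Igfbp3* promoter, chr11:7213924-7214173, also held 0. Members not called between phases or not tested there held the same motifs as *Igfbp2*. The *Igf2r* promoter had 3 matches to the GC box and 2 to the E-box, and the *Irs2* promoter 1 to each. The *Igf1r* promoter had 2 matches to the GC box and 0 to the E-box. Only exact letters were counted, so TATA-like stretches were left out, such as tatttaaa in the *Igfbp5* and tatatat in the *Igfbp3* promoter. A count of 0 therefore does not mean that a promoter lacks a TATA-like element. Of 32851 promoters of this length, 32.7% held the GC box, 6.02% the E-box, 12.4% the TATA box and 15.99% TTTGAA. The last of these had 0 matches in all 4 binding protein promoters. The matches did not overlap each other in these promoters. The *Igfbp2* and *Igfbp5* promoters hold 67.2% and 58.8% of G and C, against a median of 52.4% over all promoters. Whether any of these motifs bears on the phase differences was not tested. A match of letters is a description of the sequence only.

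The authors' per-cell table divides the cells into clusters 0 and 1. The authors made the clusters from the genes of these same cells, so the following values are a description. *Igfbp2* in cluster 0 was at 1681 and 1445 CPM in low and at 1740 and 1476 CPM in high cells of plates 1 and 2. In cluster 1 it was at 945 and 609 CPM in low and at 1132 and 1142 CPM in high. The level in cluster 0 was above that in cluster 1 in all 4 sources, by 1.29 to 2.37 times. Within cluster 0, high over low was 1.03 on plate 1 and 1.02 on plate 2, and within cluster 1 it was 1.20 and 1.87. Cluster 0 held 32.6% and 31.9% of low but 72.6% and 75.5% of high cells. The mix of cells was then fixed, on CPM without TMM factors. On that scale the log2 difference of high over low in *Igfbp2* was 0.42 on plate 1 and 0.70 on plate 2 with each source's own mix. With the cluster mix of all cells given to each source it was 0.13 and 0.34. With the phase mix of all cells it was 0.56 and 0.67.

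*Igfbp4* showed a like division, at 337 and 363 CPM in low and 378 and 434 CPM in high cells of cluster 0, against 228 and 159 CPM in low and 226 and 157 CPM in high of cluster 1. Within either cluster its high over low ratio lay between 0.982 and 1.20. *Igfbp5* was lower in cluster 0 than in cluster 1 in 3 of the 4 sources, with ratios of 0.694 to 0.771, and higher in high cells of plate 2, where cluster 1 held 13 cells. *Igfbp3* had ratios of cluster 0 to cluster 1 between 0.917 and 1.39, and those of *Igf1r* lay between 0.820 and 1.31.

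**Figure D3:**
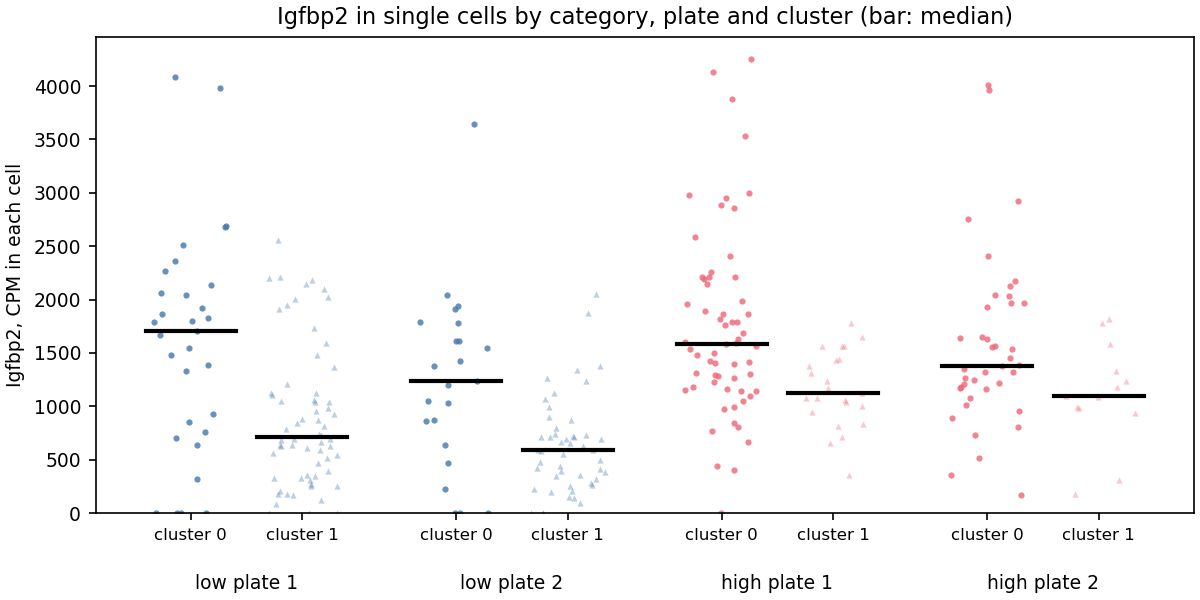
*Igfbp2* in each of the 304 cells (CPM of the cell, linear axis from 0) by category, plate and the authors' cluster; dots are cells of cluster 0, triangles cells of cluster 1, and bars are medians. The median of cluster 0 lies above that of cluster 1 in every source, and low cells are mostly in cluster 1 (64 of 95 on plate 1 and 49 of 72 on plate 2).

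To describe which genes accompany *Igfbp2* from cell to cell, Pearson correlations of log2(counts per 10000 + 1) were taken over the 304 cells after the mean of each plate and category had been subtracted, for the 2283 other genes with at least 1 UMI in at least 50% of cells. Cells of a plate share a library, and depth enters every gene, so no p is given, and the median over all these genes was 0.06 with 98% of them between -0.18 and 0.33. The highest correlation was that of *Slc4a4*, a sodium bicarbonate cotransporter, at 0.46 (0.39 on plate 1 and 0.57 on plate 2). *Slc1a3*, the glutamate transporter GLAST and one of the NSPC markers, followed at 0.44 (0.35 and 0.58), and *Gstm1*, a glutathione S-transferase, at 0.43 (0.40 and 0.48). *Acsbg1*, which activates long-chain fatty acids, had 0.42, and *Chst2*, a carbohydrate sulfotransferase, had 0.41. Also among the 10 highest were *Mlc1*, a membrane protein of astroglia, at 0.40, *Aldoc*, the glycolytic aldolase C, at 0.39, and *Ccnd2*, the G1 cyclin D2, at 0.39.

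Like *Igfbp2*, each of these 8 genes had a higher level in cluster 0 than in cluster 1 over all cells; *Slc4a4*, for example, was at 440 CPM in cluster 0 and 208 CPM in cluster 1, and *Slc1a3* at 1640 and 1066 CPM. With the means of plate, category and cluster subtracted, 7 of the 10 highest were still among the 10 highest, and *Slc4a4* had 0.43. With the phase means subtracted as well as those of plate and category, 9 of 10 were. At the low end, with the same sign on both plates, were *Actb* at -0.32, *mt-Cytb* at -0.26, *Gap43*, a protein of growing axons, at -0.26, *Sox8* at -0.25 and *Tcf12* at -0.25, both transcription factors. The value of *mt-Cytb* turned to 0.04 in cells thinned to 5000 UMIs. Of the other members, *Igfbp4* correlated with *Igfbp2* at 0.27 and ranked 71st of 2283 genes, *Igfbp3* at 0.19 and ranked 222nd, and *Igfbp5*, found in slightly under 50% of cells and so unranked, at 0.23. The 4 sparse members had values between -0.03 and 0.11. In thinned cells the correlation was 0.08 for *Igfbp4*, 0.10 for *Igfbp3*, 0.20 for *Mlc1* and 0.23 for *Chst2*, whereas *Slc4a4* had 0.42 and *Slc1a3* had 0.39.

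**Figure D4:**
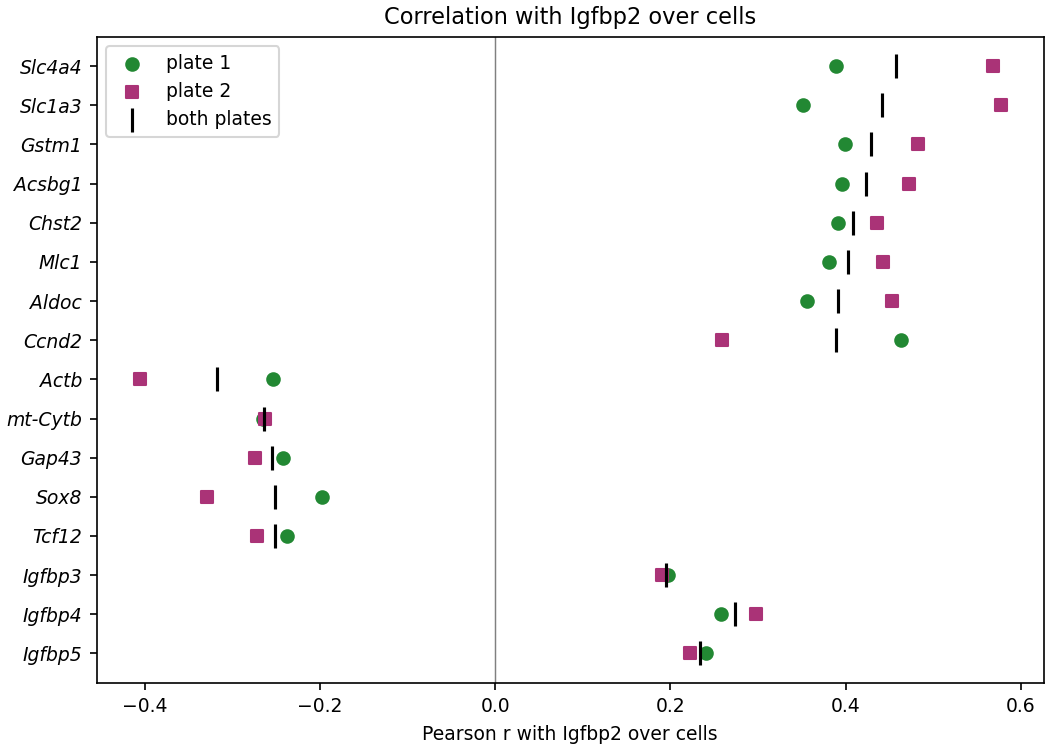
Pearson correlation with *Igfbp2* over cells (x axis; circles plate 1, squares plate 2, ticks both plates) for 8 of the 10 most positive and for the 5 most negative genes with one sign on both plates, and for *Igfbp3*, *Igfbp4* and *Igfbp5*. The 8 positive genes, picked for their high values on this same measure, lie between 0.39 and 0.46 over both plates. The 3 binding proteins, not picked by it, lie between 0.19 and 0.27.

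Further genes of the pathway were taken from a list of 60 that are no members, of which 47 had a row in the table analysed here and 34 passed the filter for the comparison of categories. The list was drawn up with earlier results of that comparison known, so its count and the p-value of its called gene are not independent evidence. Between the categories 1 of these 34 was called, against 2.14% of the 8372 genes tested. It was lower in high cells, as 1.25% of the genes tested were, and 0 of the 34 were higher, where 0.884% were called. The median log2 fold change of the 34 was 0.07. The called gene was *Pik3r1*, the p85α regulatory subunit of phosphoinositide 3-kinase, which stood at 182 and 164 CPM in low and at 111 and 90.1 CPM in high cells of plates 1 and 2 (log2 fold change -0.85, SE 0.16, edgeR adjusted p = 6.92e-05). Both low sums lay above both high sums, as for 11.6% of the genes tested. Without the plate as replicate block, its adjusted p in edgeR was 0.381. Among cells of cluster 0 it was 0.788 and among cells of cluster 1 it was 0.733, at log2 fold changes of -0.55 and -0.64.

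*Htra1*, a secreted protease that can cut binding proteins, was at 54.9 and 47.8 CPM in low and at 81.6 and 68.1 CPM in high cells and was not called (0.48, SE 0.23, edgeR adjusted p = 0.404). *Adam9*, another protease, was at 112 and 120 CPM in low and 104 and 122 CPM in high. The adaptors *Irs1* and *Gab1* had log2 fold changes of 0.24 (SE 0.19) and -0.07 (SE 0.18), and the phosphatase gene *Ptpn1* had 0.07 (SE 0.18), none of them called. At the cell surface, *Ptprz1*, the receptor-type phosphatase that binds IGFBP2 and pleiotrophin, had 0.06 (SE 0.094), and *Ptn*, which codes for pleiotrophin, had -0.12 (SE 0.073). The kinase genes *Map2k1* and *Gsk3b* had 0.14 (SE 0.14) and -0.08 (SE 0.15). *Igfbpl1*, *Igf2bp2* and *Igf2bp3* had 3, 5 and 3 UMIs in all cells together. The ligand genes *Igf1*, *Igf2*, *Ins1* and *Ins2* had no row in the table analysed here, so no level is given for them.

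Between phases, 28 pathway genes were tested. From G1 to S phase, 2 of the 28 were called lower and 0 higher, against 7.39% and 9.74% of all genes tested, so the lower calls are near that background. From G1 to G2/M phase, 5 of the 28 were called lower and 1 higher, against 11.0% and 11.1% of all genes tested. *Ptprz1* and *Ptn*, the receptor and its ligand, were lower in both: *Ptprz1* had 781 ± 169 CPM in G1 phase, 628 ± 84.0 CPM in S phase and 492 ± 89.1 CPM in G2/M phase, and *Ptn* had 1892 ± 138, 1582 ± 144 and 1305 ± 172 CPM (SD, n = 4 sources). Both were below G1 in 4 of 4 sources in either phase, with log2 fold changes to G2/M of -0.71 (SE 0.098, edgeR adjusted p = 4.87e-07) for *Ptprz1* and -0.58 (SE 0.080, edgeR adjusted p = 5.16e-07) for *Ptn*. *Htra1* (-1.06, SE 0.26), *Itgav*, an integrin subunit (-0.88, SE 0.27), and *Map2k1*, a kinase above ERK (-0.42, SE 0.16), were also called lower in G2/M phase, with edgeR adjusted p = 0.00254, 0.0171 and 0.0669. *Akt2*, a kinase of the insulin response, was the 1 gene called higher: it was at 45.9 ± 7.36 CPM in G1 and at 85.0 ± 15.9 CPM in G2/M phase, higher in 4 of 4 sources (0.79, SE 0.25, edgeR adjusted p = 0.0219).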

How the data were processed

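Single PLIN2-GFP NSPCs from 2 plates were sequenced by SORT-seq. The authors assigned the reads with Salmon (alevin is also among the processing tools) to GRCm38 and deposited estimated counts (expected counts) of UMIs per gene and cell, without normalization. The versions and the annotation release are not given in the sources used here. The per-cell table deposited by the authors gives the count of genes detected, the mitochondrial percent, cell cycle score values, phase, category, plate, well and cluster. The 304 count columns were joined to cells by equal total and gene number (0 left over), and 59 of 245 barcodes, which mark wells, occur on both plates. The authors removed doublets and regressed out the cell cycle before clustering. Their methods state a limit of 20% mitochondrial counts, and 11 cells lie at or above it.

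Counts were summed per plate and category (4 sums), or also per phase (12 sums), rounded and tested with edgeR 4.0.16 in R 4.3.3 (TMM, its filter on low counts, quasi-likelihood test, Benjamini-Hochberg over all genes tested, level 0.1), with the plate or the source as a block. SE is the absolute log2 fold change over the square root of F. The plate number pairs low and high sums, as they come from 1 plate; their deviations from the category means correlated at 0.298 over 8372 genes. With 4 sums and the block, 1 residual degree of freedom is left, so the spread is borrowed from all genes. The 12 sums share 4 sources of 1 line. Alternatives used limma 3.58.1 and DESeq2 1.42.0.

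The members and lists were chosen with earlier results of these data known. Named genes are the members, pathway genes called or with the most counts in each group of the list, and the genes with the highest and lowest correlations that have one sign on both plates. Of the genes this rule names, 3 are not reported here. Promoters came from RefSeq (7 of 8 members matched).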

Additional observations from a re-analysis of the deposited data

How the results depend on the processing

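*Igfbp2* and *Igfbp5* were called lower in G2/M phase under each of the 19 alternatives, with log2 fold changes of -0.99 to -0.61 and -3.12 to -1.58. Members called in S phase numbered 1 among cells of cluster 1, where *Igfbp2* had -0.42 (adjusted p = 0.175), and 2 without either plate. Members called in G2/M phase numbered 2 among high cells and 2 among cells of cluster 1, and 2 to 4 without a plate or source. Without the block of sources they numbered 2 in S and 4 in G2/M phase, and with 6 sums and the plates as replicate block also 2 and 4, so the replicate block changed no call of a member. Log2 fold changes of uncalled members from G1 to S phase turned as follows: *Igfbp3* to 0.025 with library size only, 0.12 in thinned cells and 0.165 in cluster 1, and it lay between -0.19 and 0.082 without 1 plate or source; *Igfbp4* to 0.012 in low cells and 0.043 in cluster 1, and it lay between -0.36 and 0.028 without 1 plate or source; *Igf1r* to -0.073 in high cells.

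The log2 difference of *Igfbp2* between high and low was above 0 in 17 of 18 alternatives. The gene was chosen with this difference known, and the alternatives reuse the same cells, so the count is no independent support. With the cluster mix of all cells, from CPM without TMM factors, the difference was 0.23. It was -0.013 in cluster 0, 0.81 in S cells and 0.35 to 0.64 with 1 plate (values, no test). It was 0.48 without the replicate block. The number of pathway genes called between categories was 0 without the replicate block, with DESeq2 (in which *Pik3r1* had no adjusted p), in G1 cells, in G2/M cells, in cluster 0 and in cluster 1; at an unadjusted p under 0.05 the numbers were 2, 1, 2, 2, 1 and 2, against 4 with the block. All genes called between categories numbered 179 with and 1 without the block, 12 with DESeq2, and 11 to 59 in thinned cells or in cells of 1 phase or cluster, and the cause was not tested. Of the 10 genes most correlated with *Igfbp2*, 5 stayed among the 10 highest in thinned cells and 6 to 8 with 1 plate, and *mt-Cytb* turned to 0.037 in thinned cells. All genes called from G1 to G2/M phase numbered 1191, with DESeq2 581, in thinned cells 419 and in cluster 1 277. All genes called from G1 to S phase numbered 925, 398, 248 and 174. With cells of 1 category, cluster 0 or fewer plates or sources they numbered 490 to 960 in G2/M and 371 to 813 in S phase. The interaction without 1 plate was not run, since it leaves no residual degrees of freedom. Single sources, clusters, the mitochondrial limit and fixed mixes were added after seeing the data. *Insr*, *Irs2* and *Igf2r*, with 37 to 85 UMIs each, had too few counts to be tested between phases.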

Other observations

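The fall of *Igfbp2* from G1 to G2/M phase was also present within cluster 0, at 1963 to 1226 CPM and 1714 to 948 CPM in low and at 2280 to 1334 CPM and 1819 to 1168 CPM in high cells of plates 1 and 2. In cluster 1 it went from 1253 to 564 CPM and from 829 to 520 CPM in low cells and from 1201 to 791 CPM in high cells of plate 2, whereas high cells of plate 1 stood at 1095 and 1146 CPM. The high cells of cluster 1 are few, with 7 in G1 and 12 in G2/M phase on plate 1 and 5 and 3 on plate 2.

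All 4 binding proteins had at least 1 UMI in 34.5% of cells, 3 of them in 41.4%, 2 in 16.8%, 1 in 4.93% and none in 2.30% of cells. By rows of wells with at least 5 cells, *Igfbp2* ranged from 743 to 1445 CPM over 8 rows of low and from 1267 to 1765 CPM over 8 rows of high cells on plate 1. On plate 2 it ranged from 682 to 1237 CPM over 7 rows of low and from 1201 to 1664 CPM over 6 rows of high cells.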
